A study of Mus musculus with 12 samples.

Results

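Sstr2, Gpr19, Taf1a, Tinf2, Zfp948, Mest and Frmd6 are genes of unrelated function whose transcripts rose in the striatum of mice with reduced Srf 1 hour after cocaine. They were selected on a measured value, the rise from saline to cocaine in mutants. In earlier results of these data 5 of the 7 had also shown a difference in response between the genotypes. The 7 were taken from 12394 genes with a probe set of their own symbol on the array, and each had exactly 1 such probe set, a group of probes that reports 1 transcript. All 7 probe sets passed the filter on low signals (log2 signal above 4 in at least 3 of 12 arrays), and so did 6651 genes in all. Sstr2 passed it with 4 arrays, the 3 of cocaine-treated mutants and 1 other, and the other 6 genes with all 12. The rule sets no numerical threshold, and genes that were not chosen had values like those of the 7. Ppp1r15a, by its probe set with the largest rise, changed by 1.63 (log2) in mutants and 0.66 in controls, a difference of 0.97.

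RNA of the striatum, with the nucleus accumbens, was hybridised to 1-colour Affymetrix mouse arrays. There were 4 groups of 3 arrays: control animals given saline, control animals given 25 mg/kg cocaine, SRF mutants given saline and SRF mutants given 25 mg/kg cocaine. All were female littermates of 10 to 15 weeks that were housed alone, handled for 5 days, injected into the peritoneum and killed 1 hour later. The series title names SRF, but the allele, any Cre driver and the cells that lost the gene are not stated in the labels used here. Groups follow the sample titles. The description field names other groups, and the treatment text gives cocaine for every sample. Srf signals followed the titles, at 6.97 to 7.21 (log2) in the 6 control arrays and 5.01 to 5.49 in the 6 mutant arrays. In bulk tissue, fewer cells of a type and less RNA per cell cannot be told apart.

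Cocaine blocks the reuptake of dopamine, and in striatal neurons the dopamine signal reaches the nucleus through cyclic AMP and MAP kinase. Well-studied nuclear targets are the factor CREB, which binds the cyclic AMP response element (CRE), and SRF, which binds the CArG box together with ternary complex factors. Genes with either element can be switched on within the hour without new protein synthesis, and the EGR and AP-1 factors made in that first wave then act on further genes.

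Because the 7 genes moved together, the sequence around their transcript starts was read from RefSeq windows (GRCm38.p6, 250 bases before to 50 after a start). All 7 genes matched by symbol, with 13 windows. Both strands were searched for the full CRE (TGACGTCA), its shorter core (short CRE, TGACG, which every full CRE holds on both strands), the AP-1 site (TGANTCA), the EGR site (GCGNGGGCG) and the CArG box. N stands for any base, so the AP-1 pattern is a loose one. The full CRE was found in Sstr2 and Tinf2, 2 of the 7 genes, against 2.03% of 27025 genes (2 of 13 windows, against 1.79% of 32851 windows). The CArG box was found in 0 of 13 windows, against 1.63% of all windows. Sstr2 and Taf1a are printed whole up to the start because they are the genes with the largest difference between genotypes, 1 with and 1 without a CRE. Capitals mark matches.

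Sstr2, 250 bases before the start, plus strand, chr11:113619077-113619326
Sstr2: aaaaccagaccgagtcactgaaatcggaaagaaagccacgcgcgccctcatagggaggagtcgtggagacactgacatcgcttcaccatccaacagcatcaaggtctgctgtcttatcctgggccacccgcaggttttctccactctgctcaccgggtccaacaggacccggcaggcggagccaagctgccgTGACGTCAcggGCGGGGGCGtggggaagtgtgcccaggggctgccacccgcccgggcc
Taf1a, first of 2 starts, 250 bases before it, plus strand, chr1:183388635-183388884
Taf1a: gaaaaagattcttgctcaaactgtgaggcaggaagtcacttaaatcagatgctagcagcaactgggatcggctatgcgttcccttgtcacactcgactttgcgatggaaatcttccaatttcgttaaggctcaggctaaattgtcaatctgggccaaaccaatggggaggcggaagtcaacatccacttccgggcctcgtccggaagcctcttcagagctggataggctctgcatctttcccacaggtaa

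In Sstr2 the full CRE begins 58 bases before the start and an EGR site follows at 47 bases, without overlap. Neither Taf1a window held any of the 5 motifs. The next stretches show matches of the other genes, each in capitals with up to 10 bases on either side; a short CRE of Tinf2 after the start is not printed.

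Tinf2 full CRE, minus strand, chr14:55681856-55681883
Tinf2: ggggacctcgTGACGTCAcagctccctc
Tinf2 short CRE, minus strand, chr14:55681902-55681926
Tinf2: tgatggagagTGACGctaggtcgta
Tinf2 short CRE, reverse orientation, minus strand, chr14:55681887-55681911
Tinf2: ctaggtcgtaCGTCActttcacagt
Tinf2 AP-1 site, minus strand, chr14:55681944-55681970
Tinf2: tggcagacgcTGATTCAgacacctagg
Zfp948 short CRE, plus strand, chr17:21566967-21566991
Zfp948: gttagggcagTGACGtgaacggaag
Gpr19 short CRE at start 4 of 4, reverse orientation, minus strand, chr6:134887793-134887817
Gpr19: accttcacagCGTCAtcttctctct
Gpr19 EGR site at start 1 of 4, reverse orientation, minus strand, chr6:134897931-134897959
Gpr19: gccgggactcCGCCCCCGCcccgcccgtg
Frmd6 EGR site, plus strand, chr12:70825431-70825459
Frmd6: ggagcggaagGCGTGGGCGgggggcgggg

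Tinf2 had the densest group of matches, with the full CRE 56 bases before the start, short CREs at 99 and 84 bases and 1 more after the start. A match to the AP-1 pattern lay at 143 bases and has T at the open middle position (TGATTCA). In Zfp948 the short CRE spans the start itself. Short CREs were present in 4 of 7 genes (Sstr2, Tinf2, Gpr19 and Zfp948), against 23.0% of all genes. By window they were present in 4 of 13, against 20.8% of all windows. EGR sites were present in 3 (Sstr2, Gpr19 and Frmd6), against 6.27%, and the AP-1 site in 1, against 8.97%. By window the EGR site was in 4 of 13, against 5.55%, with 1 site of Gpr19 counted in 2 windows. The AP-1 site was in 1 of 13, against 7.81%. A gene with more windows has more chances of a match, so counts by gene depend on the number of starts. The 3 windows of Mest held none of the 5. These windows are rich in G and C, at 66.3% in Sstr2, 74.3% in Frmd6 and 52.7% in the first Taf1a window, and the comparison with all genes was not adjusted for that. A match describes letters and is not evidence of binding.

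**Figure D1:**
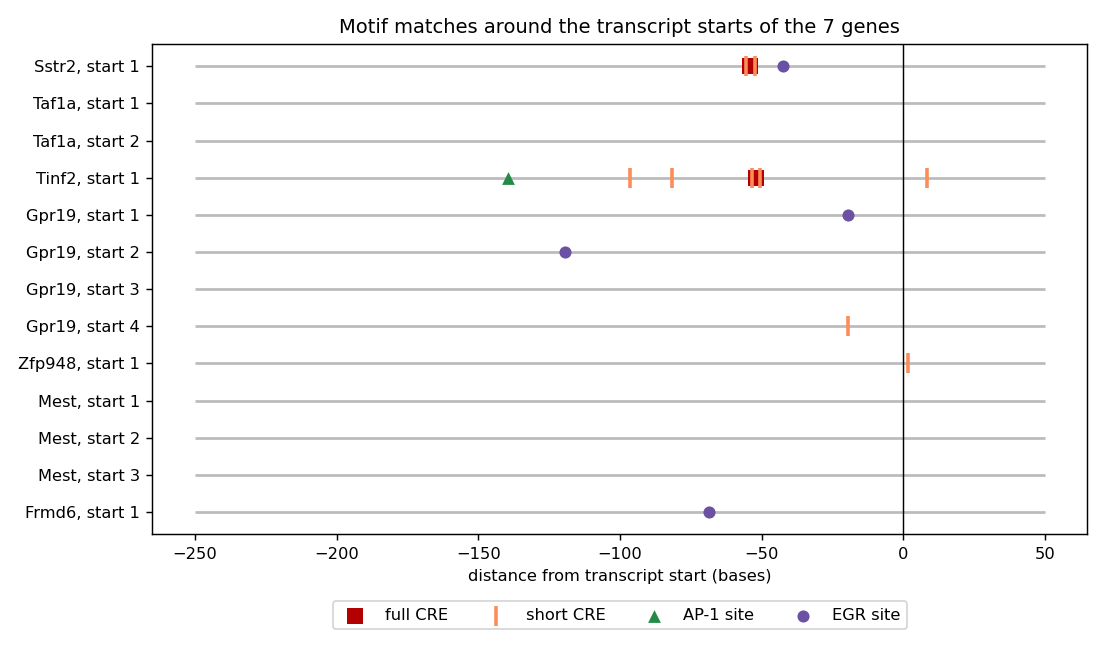
Position of motif matches (horizontal axis, bases from the transcript start at 0) in the 13 RefSeq windows of the 7 genes (vertical axis). Symbols mark the middle of a match, full CREs begin 58 and 56 bases before the start in Sstr2 and Tinf2, and starts 1 and 2 of Gpr19 share 1 EGR site; the windows of Taf1a and Mest are empty.

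In mutants all 7 genes rose after cocaine, by 3.07-fold (Taf1a) to 5.77-fold (Sstr2), and the cocaine arrays lay wholly above the saline arrays for 7 of 7, as for 8.4% of all probe sets tested. The Sstr2 fold starts from a saline mean of 3.71 (log2), under the filter level of 4. The rises in mutants describe the choice of the genes and carry no test. The median change of the 7 genes was 1.82 (log2), against −0.01 over all 11102 probe sets tested, of which 1.76% were called as higher with cocaine in mutants (limma, adjusted p under 0.05). Nothing is read from that share, since the contrast chose the genes. In controls the same genes had a median change of 0.68 (log2), and 3 of 7 (Zfp948, Mest and Frmd6) passed the test, against 0.45% of probe sets called as higher there. The control arrays do not enter the rise in mutants. They did enter the earlier difference between genotypes, so the control values of the 5 genes named for it (Sstr2, Taf1a, Tinf2, Gpr19 and Zfp948) are not an independent result.

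**Figure D2:**
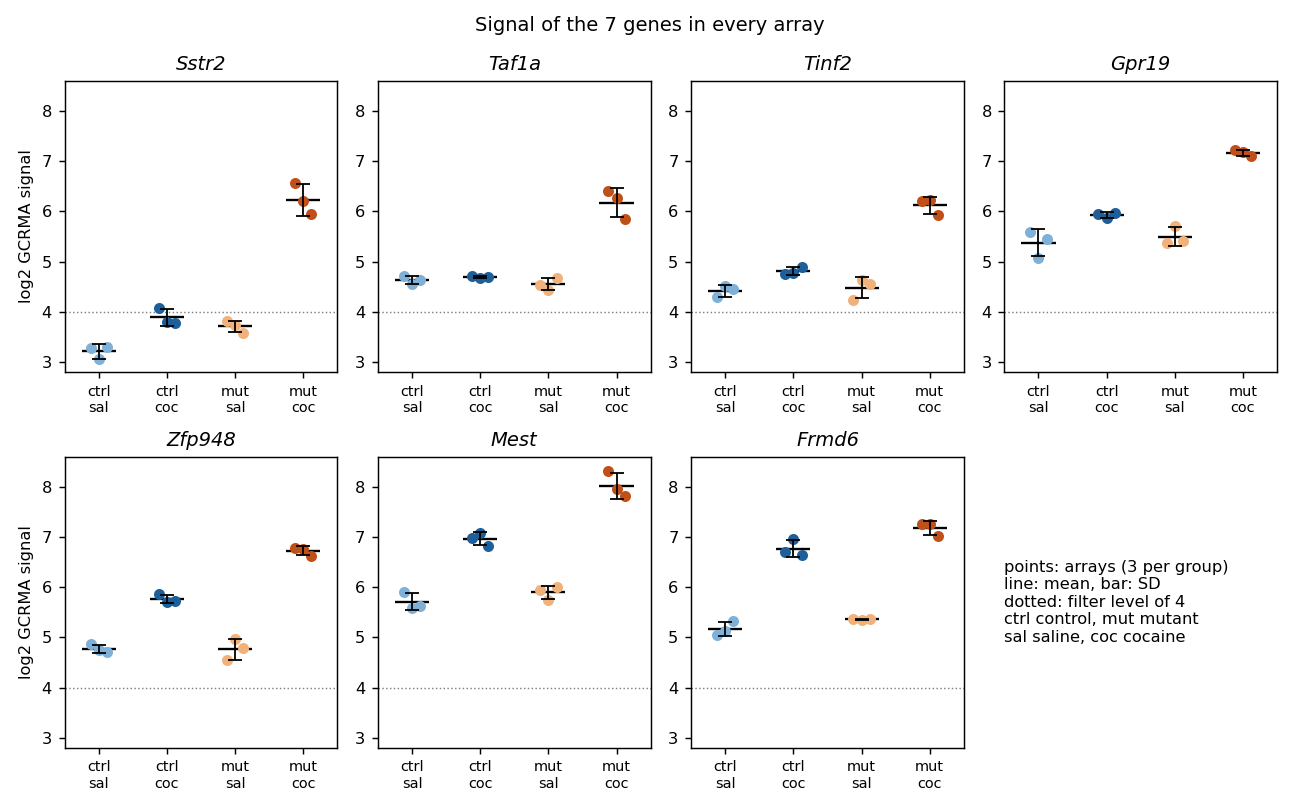
Log2 GCRMA signal (vertical axis) of the 7 genes in each of 12 arrays, by group (horizontal axis); points are arrays, lines means and bars SD (n = 3). The cocaine-treated mutants are the highest group in every panel; for Frmd6 they clear the cocaine-treated controls by 0.07.

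The cell-surface receptors come first. Sstr2 encodes a receptor for the inhibitory neuropeptide somatostatin that couples to inhibitory G proteins. Its signals (log2) were 3.28, 3.05 and 3.30 in saline-treated controls, 4.08, 3.8 and 3.78 in cocaine-treated controls, 3.81, 3.73 and 3.58 in saline-treated mutants, and 6.57, 6.2 and 5.94 in cocaine-treated mutants. All arrays but those of cocaine-treated mutants lay near or below the filter level of 4, so levels in the other groups are close to background. The change with cocaine was 2.53 (SE 0.144) in mutants, 5.77-fold. In controls it was 0.68 (SE 0.144), 1.60-fold, with no overlap between saline and cocaine arrays (as for 6.72% of all probe sets, higher with cocaine), and did not pass the test (adjusted p = 0.0726). It passed when replicate 1 or replicate 3 of the cocaine-treated mutants was left out (adjusted p = 0.0211 and 0.0362), which leaves the control arrays as they are and changes the shared estimate of the spread.

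Gpr19 encodes an orphan G protein-coupled receptor, 1 whose natural ligand is not settled. It read 5.60, 5.07 and 5.45 (log2) in saline-treated controls, 5.95, 5.87 and 5.96 in cocaine-treated controls, 5.38, 5.71 and 5.42 in saline-treated mutants, and 7.23, 7.18 and 7.11 in cocaine-treated mutants. The saline groups overlapped, and the cocaine-treated mutants lay 1.15 above the highest cocaine-treated control. The change was 1.67 (SE 0.126), 3.18-fold, in mutants and 0.55 (SE 0.126, adjusted p = 0.109) in controls. The control change passed the test without replicate 1 of the saline-treated controls (0.67, adjusted p = 0.0383) and with array weights (0.56, adjusted p = 0.036).

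Among the genes of nuclear proteins, Taf1a showed the clearest contrast between genotypes. It encodes a subunit of the selectivity factor that brings RNA polymerase I to ribosomal RNA genes. Its signals (log2) were 4.72, 4.56 and 4.64 in saline-treated controls and 4.72, 4.67 and 4.70 in cocaine-treated controls. Saline-treated mutants read 4.54, 4.44 and 4.68, and cocaine-treated mutants 6.41, 6.26 and 5.85. The 9 arrays outside the last group thus lay between 4.44 and 4.72, and its lowest array was 1.13 above the highest control given cocaine. The change was 1.62 (SE 0.122) in mutants and 0.057 (SE 0.122, 95% interval −0.21 to 0.32, adjusted p = 0.988) in controls.

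Tinf2 encodes a subunit of shelterin, the complex that protects chromosome ends. It read 4.29, 4.52 and 4.46 (log2) in saline-treated controls, 4.76, 4.78 and 4.90 in cocaine-treated controls, 4.24, 4.63 and 4.56 in saline-treated mutants, and 6.21, 6.22 and 5.93 in cocaine-treated mutants. Control arrays did not overlap between treatments, with a gap of 0.24, yet the control change of 0.39 (SE 0.115, 95% interval 0.14 to 0.64) did not pass the test over all probe sets (adjusted p = 0.351). The change in mutants was 1.64 (SE 0.115), 3.13-fold.

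Zfp948 encodes a zinc finger protein. It read 4.86, 4.75 and 4.71 (log2) in saline-treated controls, 5.86, 5.70 and 5.73 in cocaine-treated controls, 4.54, 4.97 and 4.78 in saline-treated mutants, and 6.79, 6.77 and 6.63 in cocaine-treated mutants. Here controls responded clearly too. The gene rose 1.99-fold in controls (log2 change 0.99, SE 0.105, adjusted p = 0.000253) and 3.91-fold in mutants (1.97, SE 0.105).

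Mest and Frmd6 had the largest responses in controls. Mest, an imprinted gene expressed from the paternal copy, encodes a protein of the hydrolase fold family. Its signals (log2) were 5.91, 5.59 and 5.63 in saline-treated controls, 6.98, 7.08 and 6.83 in cocaine-treated controls, 5.95, 5.75 and 6.0 in saline-treated mutants, and 8.32, 7.95 and 7.81 in cocaine-treated mutants. It rose 2.38-fold in controls (1.25, SE 0.133, adjusted p = 0.000257) and 4.35-fold in mutants (2.12, SE 0.133). The saline groups overlapped and the cocaine groups did not.

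Frmd6, also called willin, encodes a FERM domain protein at the cell membrane that has been placed upstream of the Hippo kinases. It read 5.05, 5.13 and 5.33 (log2) in saline-treated controls, 6.71, 6.96 and 6.65 in cocaine-treated controls, 5.36, 5.35 and 5.37 in saline-treated mutants, and 7.26, 7.25 and 7.03 in cocaine-treated mutants. It rose 3.03-fold in controls (1.60, SE 0.104, adjusted p = 2.22e-06) and 3.53-fold in mutants (1.82, SE 0.104).

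The share of the response that controls also showed varied over the 7 genes. The control change was 3.5% of the mutant change on the log2 scale for Taf1a, 23.8% for Tinf2, 26.9% for Sstr2, 33.1% for Gpr19, 50.4% for Zfp948, 59.1% for Mest and 87.8% for Frmd6. The share for Taf1a was 0.996% without replicate 2 and 6.1% without replicate 1 of the saline-treated controls, below that of Tinf2 in both cases. The order of Tinf2, Sstr2 and Gpr19 was not tested. With 1 array left out the control change of Gpr19 ran from 0.40 to 0.67, and the Sstr2 share rests on control means of 3.21 and 3.89, under the filter level. The difference in response (mutant minus control, log2) was 1.85 (SE 0.204) for Sstr2, 1.56 (SE 0.172) for Taf1a, 1.25 (SE 0.163) for Tinf2 and 1.12 (SE 0.178) for Gpr19. It was 0.98 (SE 0.148) for Zfp948, 0.87 (SE 0.189, 95% interval 0.46 to 1.28) for Mest and 0.22 (SE 0.147, 95% interval −0.10 to 0.54) for Frmd6. These values describe the choice of the genes, as the contrast holds the rise in mutants, and calls among the 7 are no support. Over all probe sets 0.045% were called as larger in mutants, and these 5 probe sets are those of Sstr2, Taf1a, Tinf2, Gpr19 and Zfp948. The name "enlarged in mutants" is not borne out for Frmd6, whose unadjusted interval includes 0. For Mest the interval lies above 0, but the adjusted p over all probe sets was 0.306. From Tinf2 to Mest each gene differs from the next by less than its SE.

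Ranked by the difference, the genes stood 1st (Sstr2), 2nd (Taf1a), 4th (Tinf2), 5th (Gpr19), 10th (Zfp948), 16th (Mest) and 1030th (Frmd6) of 11102 probe sets. Between them, down to Zfp948, stood, each by its probe set with the largest difference, the cyclic AMP responsive modulator Crem (1.32, SE 0.350), Pvr (1.11), Lipg (1.08), Usp38 (1.07) and Ier3 (1.05). A brighter Crem probe set gave 0.65 (SE 0.287). Among the 30 genes with the largest rises in mutants, taking the highest probe set of each, were all 7, and 19 of the other 23 also had a difference above 0, with a median of 0.59 and a range from −0.89 (Arc) to 1.32 (Crem). Ranking on the mutant response favours such a sign.

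**Figure D3:**
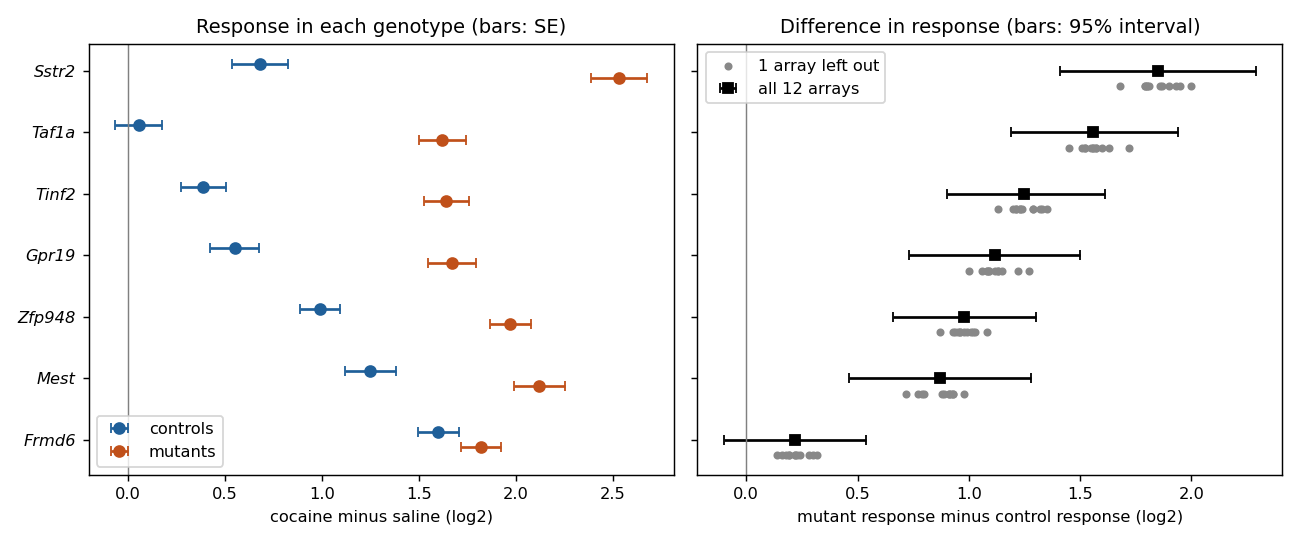
Left, cocaine minus saline (log2) for each gene in controls and mutants, with SE. Right, the difference between those responses with its 95% interval, and grey points for fits with 1 array left out: from 1.68 to 2.00 for Sstr2, but from 0.14 to 0.32 for Frmd6.

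After saline the genotypes were close. Mutant minus control (log2) was 0.50 (SE 0.144) for Sstr2, whose groups were 0.28 apart but both wholly under the filter level of 4, so that this is a difference between signals near background. It was 0.19 (SE 0.104) for Frmd6, whose groups were 0.02 apart. Mutant arrays lay wholly above control arrays after saline for 9.18% of all probe sets tested. For the other 5 genes the saline groups overlapped and differences ran from −0.086 (Taf1a) to 0.19 (Mest). After cocaine the mutant arrays lay wholly above the control arrays for 7 of 7 genes, as for 10.7% of all probe sets tested, and the difference in means was 2.35 for Sstr2, 1.48 for Taf1a, 1.31 for Tinf2, 1.24 for Gpr19, 1.06 for Mest, 0.97 for Zfp948 and 0.41 for Frmd6. Both comparisons share mutant arrays with the rise that chose the genes and were not tested.

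Averaged over both treatments, 7 of 7 genes were called as higher in mutants and 0 as lower, against 4.41% of probe sets called as higher and 5.05% as lower. This average equals the saline difference plus the difference in response divided by 2, so it carries the larger rise in mutants and is no separate support. Such calls are not particular to the 7. Of 15 tested activity-induced genes such as Fos, 9 were called as higher in mutants and 3 as lower. For Sstr2 no fold is given, since it passed the filter through the cocaine-treated mutants and its other group means, 3.21, 3.89 and 3.71, lie under the filter level. Taf1a was 1.62-fold higher (log2 0.70, SE 0.0862, adjusted p = 0.000225) and Tinf2 1.60-fold higher (0.68, adjusted p = 0.000166). Frmd6 was 1.23-fold higher (0.30, SE 0.0736, adjusted p = 0.0229), a call lost without replicate 1 or 2 of the cocaine-treated mutants or replicate 1 or 3 of the cocaine-treated controls (adjusted p = 0.053 to 0.0607).

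Among the 3 cocaine-treated mutants, replicate 3 was lowest for 7 of 7 genes. It was also lowest for 65.1% of the 195 probe sets called as higher in mutants and for 34.7% of all probe sets tested. Leaving it out raised the Sstr2 change in mutants to 2.68 and that of Taf1a to 1.78, and leaving out replicate 1 lowered them to 2.36 and 1.5.

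Counts of calls with cocaine among relatives of the 7 genes follow. At the shares of all probe sets called, given after them, few calls would come up in lists this short. Nothing is read from their low number. Of the somatostatin system, 3 of 8 listed genes were tested (Sst, Npy and Nos1, the last 2 being markers of the same interneurons), and 0 were called by limma with cocaine in either genotype (0 also at an unadjusted p under 0.05). The other receptors and Cort did not pass the filter. Sst, the somatostatin precursor, changed by 0.08 in controls and −0.24 in mutants. Of the RNA polymerase I machinery, 13 of 21 genes were tested and 0 were called by limma with cocaine in either genotype (1 in controls and 2 in mutants at an unadjusted p under 0.05), with a median change of 0.02 in mutants. The brightest, nucleolin (Ncl), read 0.02. Taf1c, from the same complex as Taf1a, was lower in mutants over both treatments (−0.32, SE 0.0679, adjusted p = 0.0102).

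Of 7 tested shelterin and telomere genes 0 were called by limma with cocaine in either genotype (0 in controls and 2 in mutants unadjusted), with a median change of 0.05 in mutants; the brightest, Tnks2, read 0.10. Of 24 tested imprinted genes 0 were called by limma with cocaine in either genotype (1 and 4 unadjusted), and over both treatments 3 were higher in mutants, Nnat (0.84), Dhcr7 (0.73) and Plagl1 (0.29). Of 14 tested FERM domain and Hippo pathway genes 0 were called by limma with cocaine in either genotype (0 and 1 unadjusted), and Frmd4b (0.25) and Ezr (0.28), which links membrane to actin, were higher in mutants over both treatments. The other tested probe sets of Frmd4b (0.22 and −0.14) and Ezr (0.04) were not called. Beside these counts, 0.45% of all probe sets were called as higher with cocaine in controls and 1.76% in mutants, and 4.41% as higher in mutants over both treatments. The unadjusted counts have a larger background. At an unadjusted p under 0.05 (limma, either direction), 704 of 11102 probe sets passed with cocaine in controls and 1193 in mutants.

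Among orphan receptors and zinc finger genes, Gpr3 and Zfp64 had larger changes in mutants, but at signals near or under the filter level of 4. Group means (log2) ran from 3.02 to 4.81 for Gpr3, from 3.74 to 4.56 for Zfp64 and from 3.53 to 4.06 for Zfp553. Gpr3 (adjusted p of its difference in response 0.32), a constitutively active receptor that raises cyclic AMP, was the 1 called with cocaine of 8 tested orphan receptors. It rose by 1.06 in controls (SE 0.102, adjusted p = 0.000119) and by 1.71 in mutants (adjusted p = 7.58e-07). Of 81 other tested Zfp genes, Zfp64 rose in mutants (0.79, adjusted p = 0.00316) against 0.29 in controls (adjusted p = 0.711). Zfp553, named after its values were seen, fell in mutants (−0.53, adjusted p = 0.00273). Zfp61 changed by 0.71 in mutants and 0.39 in controls, and neither change was called (adjusted p = 0.0752 and 0.787). Over both treatments Gpr3, Gpr12 and Gpr83 were called as higher in mutants. Of the Zfp genes 1 was called as higher and 3 as lower, against 4.41% and 5.05% of all probe sets. The difference in response was called for 0 genes in these 7 lists, and unadjusted for 4 zinc finger genes and at most 1 gene in each other list. Over all 11102 probe sets, 553 passed for that difference at an unadjusted p under 0.05. Of 15 tested activity-induced genes 13 rose in controls and 12 in mutants, with median changes of 2.29 and 2.16 and a median difference of −0.03. Among them Egr2 and Egr4 differed most in the other direction (mutant minus control −3.94 and −2.82), and neither change in mutants was called. Egr2 changed by 3.88 in controls and −0.06 in mutants (limma, adjusted p = 0.925). Egr4 changed by 2.83 in controls and 0.01 in mutants (adjusted p = 0.997). Group means of Egr4 were 4.73 (log2) in cocaine-treated controls and 1.9 to 2.11 in the other groups, under the filter level of 4. Those of Egr2 in mutants, 3.83 and 3.77, were also under that level.

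Neighbouring genes were then compared, a check added after the values of the 7 genes had been seen. Within 20000 bases lay 7 genes with a probe set of their own symbol, of which 5 were tested. Slc39a11, within which Sstr2 lies, changed by 0.12 in mutants (SE 0.104), and Copg2, which overlaps Mest, by −0.043 (SE 0.0782). Mdp1 and Nedd8, near Tinf2, read 0.088 and −0.047, and a second Mdp1 probe set −0.19. Mia3, next to Taf1a, was the exception. It encodes a protein that loads collagen at endoplasmic reticulum exit sites.

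Mia3 read 7.35, 7.41 and 7.32 (log2) in saline-treated controls, 7.5, 7.45 and 7.44 in cocaine-treated controls, 7.51, 7.38 and 7.27 in saline-treated mutants, and 8.21, 8.06 and 7.84 in cocaine-treated mutants. Cocaine-treated mutants lay above every other array, as for Taf1a. Mia3 rose by 0.65 in mutants (SE 0.0968, adjusted p = 0.00264) and read 0.10 in controls (SE 0.0968, adjusted p = 0.961). Between the genotypes these responses differed by 0.54 (SE 0.137), which missed the threshold (adjusted p = 0.378). A second, dimmer Mia3 probe set read 0.31 in mutants (adjusted p = 0.285) and −0.02 in controls, so the call rests on 1 of 2 probe sets.

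**Figure D4:**
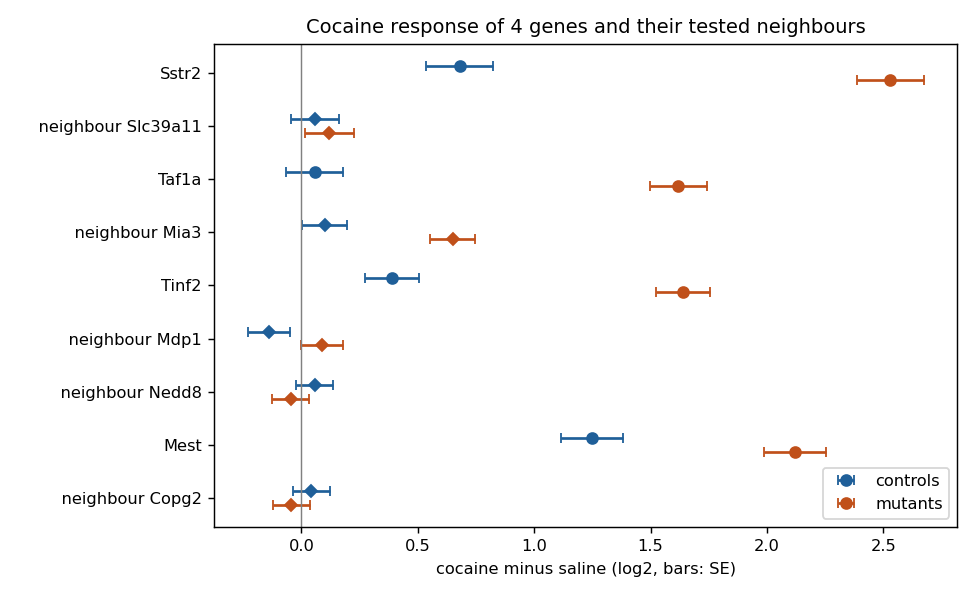
Cocaine minus saline (log2, with SE) in controls and mutants for 4 of the genes (circles) and their tested neighbours (diamonds). The brighter probe set of Mia3, drawn here, read 0.65 in mutants and Taf1a 1.62; Slc39a11, Mdp1, Nedd8 and Copg2 lie between −0.14 and 0.12.

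The 7 genes tracked each other closely, with Pearson's r of 0.730 to 0.978 over the 12 arrays (21 pairs, median 0.944). Such values describe profiles that the choice of the genes had already made alike. The other genes with the most similar profile were, for Sstr2, Taf13 and Arf4 (r = 0.978 each), and for Taf1a, Usp38 (0.972) and Mynn (0.961). For Tinf2 they were Arih2 (0.968) and Pcna (0.963), and for Gpr19, Sike1 (0.971) and the chaperone gene Dnajb1 (0.963). For Zfp948 they were the angiogenic factor gene Vegfa (0.987) and Tiparp (0.977), and for Mest, the G protein subunit gene Gnai3 (0.985) and the ubiquitin ligase gene Siah2 (0.976). Frmd6 was most like Tiparp (0.988) and the stress-inducible gene Gadd45b (0.980), both of which rose in both genotypes.

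The makeup of the samples was read from marker genes. Summed signals of medium spiny neuron markers (8 of 11 tested) were 10278 to 11004 in saline-treated and 9802 to 10615 in cocaine-treated mutants, and those of interneurons (4 of 6) 1078 to 1134 and 837 to 1160. In controls the medium spiny neuron sums were 9174 to 10037 after saline and 9541 to 9813 after cocaine, so saline-treated mutants lay wholly above saline-treated controls. Astrocyte (7 of 7), oligodendrocyte (5 of 6) and microglia (7 of 7) sums also overlapped between saline-treated and cocaine-treated mutants, at 3023 to 3625 and 3127 to 3420, 8531 to 10037 and 8840 to 9608, and 731 to 798 and 713 to 767. Gfap was the 1 marker called with cocaine in either genotype, lower in mutants (−1.02, adjusted p = 0.0303). A second, dimmer Gfap probe set was also lower (−0.93, adjusted p = 0.0189). Over both treatments that second probe set was higher in mutants (0.80, adjusted p = 0.0018), while the brighter one was not called (0.39, adjusted p = 0.144). In the astrocyte sum Aldoc (group means 11.13 to 11.27) far outweighs Gfap (4.03 to 5.05), so that sum cannot show a change in Gfap. Endothelial markers (2 of 5) summed to 59 to 88 and 61 to 71. Over both treatments Pdyn (2.20), Tac1 (0.35) and Penk (0.19), neuropeptide genes of medium spiny neurons, were higher in mutants and Rgs9 lower (−0.33). None of the cortical markers on the array (Tbr1, Neurod6 and Neurod2) or blood markers (Hba-a1 and Alas2) passed the filter. Ttr, a choroid plexus transcript, reached 9.61 (log2) in replicate 3 of the cocaine-treated controls against 2.83 to 5.90 in the other 11 arrays. Leaving that array out kept the control changes of all 7 genes on their side of the threshold. The signal of the Gapdh control probes at the 3′ end minus that at the 5′ end (log2), a sign of RNA quality, was −0.14 to −0.10 in saline-treated and −0.10 to −0.06 in cocaine-treated mutants, and −0.17 to −0.11 and −0.11 to −0.06 in controls. The same measure for the Pcx control probes overlapped between treatments. It was 3.12 to 3.35 in saline-treated and 3.21 to 3.35 in cocaine-treated mutants, and 3.24 to 3.32 and 3.25 to 3.30 in controls. The part of cell makeup and of RNA quality in the 7 responses was not tested.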

How the data were processed

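RNA of 12 striatum samples was measured, 1 array per sample. Per the submitters' processing notes, the authors used GCRMA under R 2.4.1, which corrects background, normalises arrays together and summarises probes, and deposited log2 signals. No label gives its options. The log base was read from the range of the values, 1.26 to 13.1, and array medians of 3.75 to 3.78 show a common level. Of 22690 probe sets, 64 controls were left out, and 11102 with a log2 signal above 4 in at least 3 arrays were tested. Names came from the platform annotation (20393 probe sets with 1 symbol, 691 with several, 1606 with none); the 7 Entrez identifiers matched RefSeq.

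All fits used limma 3.58.1 in R 4.3.3 with a mean for each of 4 groups, all 12 arrays, empirical Bayes moderation and Benjamini-Hochberg adjustment over all probe sets tested, two-sided, called at 0.05. The script was tested on simulated data. Intervals are 95% and unadjusted. The number of arrays limits the precision; the titles call the replicates biological, and p-values measure the spread between these samples. The 7 genes, the lists and the tests were chosen with earlier results of these data known. Named genes were the 7, for each the 2 most similar profiles, and genes from each list. The latter were drawn from members called or past a 1.5-fold rise in mutants and the brightest, and not every such gene is named. Alternatives were the filter, a replicate block, quantile normalisation, array weights, an intensity trend, fits of only the groups compared and leaving out each array.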

Additional observations from a re-analysis of the deposited data

Results flagged for a closer look

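By limma's test of the difference in cocaine response over all probe sets, 5 of the 7 genes were called. Of all probe sets tested, 0.045% were called as larger in mutants. The call is what marks these genes here. Because these genes had been chosen with that contrast in view, the values describe the choice and are not new evidence. The difference, mutant minus control (log2), was 1.85 for Sstr2, 1.56 for Taf1a, 1.25 for Tinf2, 1.12 for Gpr19 and 0.98 for Zfp948, and the mutant response was the larger one in each. Groups of 3 arrays are too small to look for single outlying arrays.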

How the results depend on the processing

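Across the alternatives tried, the number of probe sets called for cocaine in controls was 50, and 40 to 56 with 1 array left out; the other settings gave 39 (no filter) to 88 (array weights). For the genotypes averaged over treatments it was 1051, and 812 to 1088 with 1 array left out; it ran from 803 (no filter) to 1319 (array weights) under the other settings. Same-numbered replicates did not pair: their deviations correlated at −0.14 to 0.12 (18 pairs, 1 above 0.1), and 2 of 12 arrays correlated best with their own number. With the replicate block, 46 probe sets were called in controls and 907 between genotypes. The median over the 7 genes stayed at 1.80 to 1.82 for the rise in mutants and 1.08 to 1.13 for the difference in response under the other settings. With 1 array left out they ran from 1.78 to 1.90 and from 1.00 to 1.22. With the block the control change of Sstr2 passed the test (adjusted p = 0.0285). The calls for Sstr2 and Gpr19 in controls and for Frmd6 between genotypes changed as given with their results; Frmd6 also lost its call without the filter (adjusted p = 0.0531). The cause of these changes was not tested. Signals near or under the filter level limit what Sstr2 can show outside cocaine-treated mutants.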
